A study of Mus musculus with 4 samples.

Results

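The cytosolic ribosomal protein genes encode the protein parts of the ribosome that translates nuclear messages. They were taken here as all non-control probes on the array whose gene name in the scanner files is Rpl or Rps followed by a number, with an optional letter and digit, or Rplp0, Rplp1 or Rplp2. The ribosomal S6 kinases, whose names also begin with Rps, are not among them. This gave 185 probes (194 spots) of 55681 probes, for 83 of the 23628 genes named on the array, 51 of the large and 32 of the small subunit. The filter on dim probes kept 184 probes and 82 genes. The gene left out was Rpl3l, the paralogue of Rpl3 found in striated muscle, whose probe was well above background on 1 array in each channel.

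Each of 4 Agilent two-colour arrays carried a Cy5-labelled RNA named primary odontoblast, the dentin-forming cell of the dental pulp, and a Cy3-labelled RNA named calvarial osteoblast, a bone-forming cell of the skull vault. The cells came from 2-week-old mice, C57BL/6 where a strain is given, that carry EGFP under a 2.3 kb promoter of type I collagen. They were freed with enzymes, sorted by GFP and described as matched by donor, and both groups carry the transgene. Because the promoter drives EGFP in both cell types, the gate itself does not separate odontoblasts from osteoblasts, and the number of animals behind an array is not stated. A ratio is the log2 value of Cy5 divided by Cy3 within 1 array, positive where the RNA labelled odontoblast is higher, and the 4 arrays are named by the replicate number of their titles.

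Most of the cell type markers ran against the labels. Dspp, which encodes a precursor of dentin matrix proteins, averaged -1.95 ± 0.74 (SD, n = 4), and Dmp1, another matrix protein of dentin and of osteocytes, averaged -1.71 ± 0.92. Ifitm5, a membrane protein of bone-forming cells, had 5.05 ± 1.14. The odontoblast list had a median of -1.83 over 10 genes, with 6 means below 0 and 4 above it, from -5.91 to 1.41. By limma 3 of these genes were called, all higher in Cy3, where 1.66% of all features were called in either direction. At an unadjusted p under 0.05, 6 (60%) were higher in Cy3 and 1 (10%) in Cy5, against 8.88% and 10.1% of all features. The osteoblast list had a median of 2.72 over 12 genes, all with means above 0, and 5 were called higher in Cy5, against the same 1.66%. At an unadjusted p under 0.05, 9 (75%) were higher in Cy5 and 0 in Cy3. The channels are therefore called by their labels throughout, and which cell type a channel holds is not settled by these files. No array had its dyes swapped, so dye and cell type cannot be told apart. The 4 arrays shared 1 slide, and p-values measure the spread between them. Over the non-control spots, the median spot was 7.10 to 8.21 times its local background in Cy5 and 10.9 to 16.0 times in Cy3.

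A ribosome is built from a small subunit, which binds the message and reads its codons, and a large subunit, which joins the amino acids and passes the new protein out through a tunnel. Its proteins are made in near-equal amounts, and their messages are among the most abundant of a cell. In mammals these messages start with a run of pyrimidines, the 5′ TOP motif, through which mTOR signalling and the protein LARP1 control their translation. Cells that secrete much matrix, such as osteoblasts and odontoblasts, rely heavily on this machinery.

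As a set, the ribosomal protein genes lay slightly towards the channel labelled odontoblast, by a similar amount on each array. The median of their mean ratios was 0.386, a 1.31-fold difference, and 77 of 82 genes (93.9%) had a mean above 0, against 49.8% of all 37374 features tested. On the single arrays the median of the 82 genes was 0.450, 0.360, 0.418 and 0.375 on arrays 1 to 4, with a mean of 0.401 ± 0.041 (SD, n = 4 arrays). The median over all features was -0.003. The ribosomal protein probes are very bright, with 72 of the 82 genes among the brightest 10% of features, so a second comparison was made with the 1504 other features whose brightness lay between the quartiles of the set. Those features had a median of 0.033 over the means, and between -0.014 and 0.068 on the single arrays. They were somewhat dimmer than the set, with a median brightness (mean log2 intensity of the channels) of 14.8 against 15.1. Their upper quartile was 15.2 against 15.7. Across the 82 genes Spearman's rho between mean ratio and brightness was 0.279, given as a description. The part of brightness in the shift was not tested. RNA was bulk RNA from sorted cells, in which a different make-up of cells and a different amount of RNA per cell cannot be told apart.

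**Figure D1:**
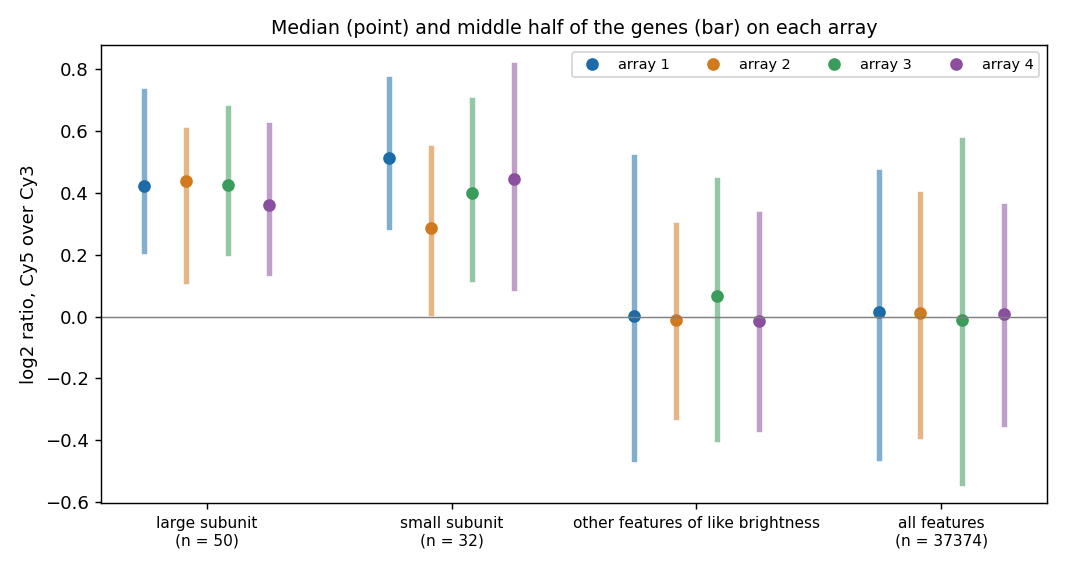
Median log2 ratio (points) and interquartile range (bars) of the large subunit genes, the small subunit genes, the 1504 other features of like brightness and all 37374 features, with each array in its own colour. The large subunit medians lie between 0.362 and 0.437 and the small subunit medians between 0.286 and 0.512, while the medians of the other sets lie within 0.068 of 0.

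No single gene carried this shift past the test. With limma and Benjamini-Hochberg adjustment over all features, 0 of 82 genes were called at an adjusted p under 0.05, against 1.66% of all features tested (620 of 37374). At an unadjusted p under 0.05, 32 genes (39%) were higher in Cy5, against 10.1% of all features, and 1 gene, Rps3 (1.22%), was higher in Cy3, against 8.88% of all features. On all 4 arrays 47 genes (57.3%) lay above 0, against 15.7% of all features. Below 0 on all 4 arrays were 2 genes (2.44%), Rps3 and Rps2, against 14.8% of all features. The shift was small for most genes, with 51 means within 0.5 of 0 and 4 above 1. With the variance prior following intensity, limma called 4 genes, Rpl14, Rpl21, Rpl34 and Rps26, all higher in Cy5 (4.88% of the set, against 2.06% of all features called in either direction). With the channels taken as unpaired groups it called 4 genes, Rpl14, Rpl22l1, Rpl34 and Rps26, again 4.88%, against 3.34% of all features.

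The medians of the subunits lay close together. The large subunit genes had a median of 0.372 with an SD of 0.369 over 50 genes, and the small subunit genes had a median of 0.395 with an SD of 0.391 over 32 genes. Large minus small was -0.091, 0.150, 0.026 and -0.082 on arrays 1 to 4, so its sign changed between arrays and its size stayed below the spread within either subunit. Means above 0 were found for 48 of 50 large and 29 of 32 small subunit genes. The single arrays differed more in spread than in position, with an SD over the 82 genes of 0.625, 0.486, 0.454 and 0.584 on arrays 1 to 4.

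**Figure D2:**
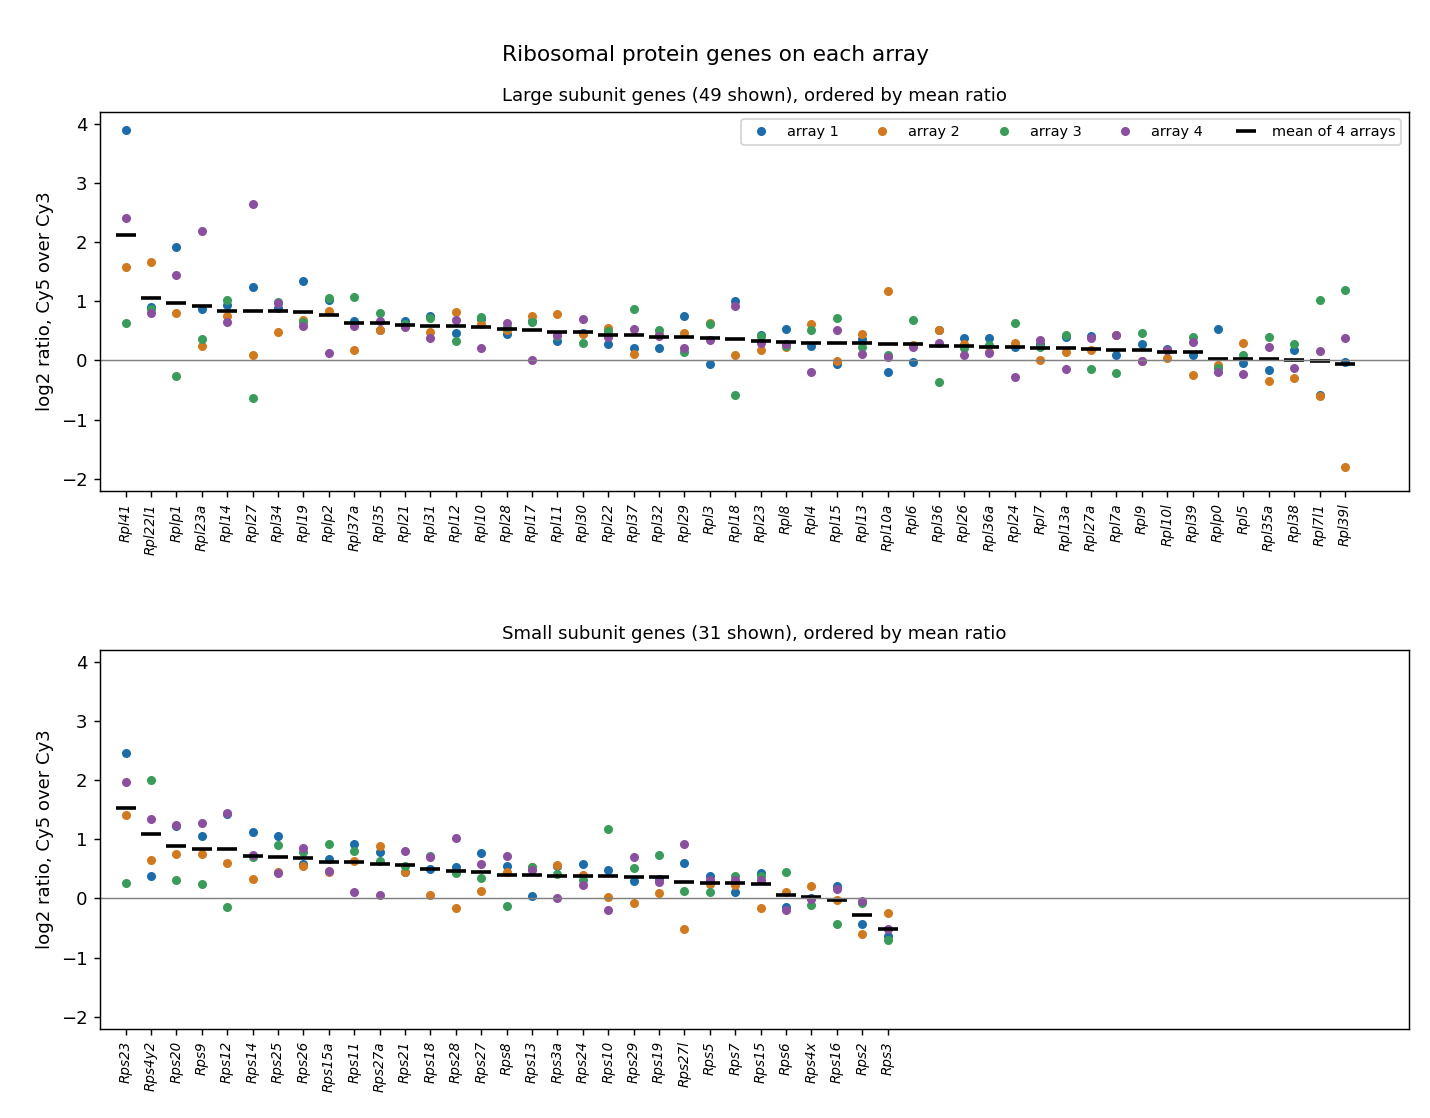
Log2 ratio of the tested ribosomal protein genes, without 1 of each subunit, on each of the 4 arrays (coloured points) and the mean of the arrays (black bars), with large subunit genes above and small subunit genes below, each ordered by mean. Rpl41 and Rps23 stand highest with means of 2.13 and 1.52, and Rps3 lowest with -0.53.

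The genes with the highest means were also among the least reproducible. Rpl41, the smallest ribosomal protein, which lies where the subunits meet, had ratios of 3.89, 1.59, 0.62 and 2.41 on arrays 1 to 4. Its mean of 2.13 (4.36-fold, SE 0.54, limma adjusted p = 0.140) covered a range from a small to a very large difference, with array 1 highest and array 3 lowest. In channel levels after loess and Aquantile normalization, Rpl41 stood at 15.9 ± 0.66 in Cy5 and 13.8 ± 0.87 in Cy3 (log2, SD, n = 4). Rps23, a protein of the decoding centre, had 2.45, 1.41, 0.25 and 1.96, a mean of 1.52 (2.86-fold, SE 0.38, limma adjusted p = 0.141), with the arrays in the same order of size. Neither gene has a second probe on the array.

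Rpl22l1, the paralogue of Rpl22, had ratios of 0.91, 1.66, 0.87 and 0.80, a mean of 1.06 (2.09-fold, SE 0.22, limma adjusted p = 0.096). Its 95% interval was 0.52 to 1.60, and array 2 stood apart above the other three. Rps4y2, now named Rps4l, is a paralogue of Rps4x and had 0.37, 0.65, 1.99 and 1.34, with a mean of 1.09 and an adjusted p of 0.168 by limma. In that gene array 3 was highest, unlike in Rpl41 and Rps23.

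Some genes steadier than Rpl41 and Rps23 showed a smaller difference, and other steady genes had lower means still. Among the latter, Rpl10l (SD 0.074, brightness 8.80) had a mean of 0.14, Rpl26 (SD 0.117) 0.24 and Rps4x (SD 0.133) 0.02. The SD of Rpl14, given next, was 0.165. Rpl14 had 0.93, 0.76, 1.02 and 0.66, a mean of 0.84 (1.79-fold, SE 0.17, limma adjusted p = 0.090). It had the lowest adjusted p of the 82 genes, and all 4 arrays lay between 0.66 and 1.02. These are values of its brightest probe. Another Rpl14 probe, at a brightness of 15.4, had a mean of 0.63. A dim one, at 8.69, had -0.22, -0.08, 0.84 and -0.15, a mean of 0.10. Rpl21 had 0.67, 0.59, 0.61 and 0.56, a mean of 0.61 (1.52-fold) with an SD of 0.045, the smallest of the set. Its channel levels were 16.4 ± 0.025 in Cy5 and 15.8 ± 0.061 in Cy3 (log2, SD, n = 4), with no overlap between the channels. These values are of the brightest Rpl21 probe. Its dimmer probes were not steady, with -0.23, 0.39, 1.43 and 0.27 at a brightness of 12.1 and -0.82, 2.48, 1.92 and -1.71 at 7.28. Rpl28 had 0.44, 0.51, 0.56 and 0.63, a mean of 0.54. Rps26, one of the genes mutated in Diamond-Blackfan anaemia, had 0.58, 0.54, 0.78 and 0.84, a mean of 0.68.

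At the low end, Rps3 and Rps2 line the entry of the message channel of the small subunit. Rps3, which is also known for a role in DNA repair, had ratios of -0.64, -0.25, -0.70 and -0.51, a mean of -0.53 (SE 0.17, limma adjusted p = 0.203), and its 95% interval was -0.96 to -0.09. The probe behind this value had a brightness close to those of the other probes of Rps3, which had means of 0.10 and 0.20, so the direction of Rps3 rested on 1 probe of 3, and with median centring in place of loess its mean was 0.016. Rps2 had -0.43, -0.60, -0.08 and -0.04, a mean of -0.29 (0.465 with median centring), and its second probe had -0.02. Rps16 and Rps4x lay at -0.02 and 0.02, and Rpl38, Rpl35a and Rpl5 at 0.01, 0.03 and 0.03.

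The start regions of 9 of these genes are shown because the set moved together and its messages are known for their pyrimidine start. They are from RefSeq promoters on GRCm38.p6, 40 bases before and 20 from the annotated start, on the strand of the gene. Capitals mark a run of at least 5 pyrimidines (C or T) that comes within 3 bases of the start. The first 4 genes are among those with the highest ratios, and the other five lay near 0 or below it. Rpl41 is at chr10:128549149-128549208 (minus strand), Rps23 at chr13:90923082-90923141, Rpl22l1 at chr3:28805468-28805527 and Rpl14 at chr9:120571477-120571536. Rpl38 is at chr11:114668540-114668599, Rplp0 at chr5:115559427-115559486, Rps16 at chr7:28350649-28350708, Rps2 at chr17:24720023-24720082 and Rps3 at chr7:99483690-99483749 (minus strand).
Rpl41: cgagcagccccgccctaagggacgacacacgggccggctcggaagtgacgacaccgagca
Rps23: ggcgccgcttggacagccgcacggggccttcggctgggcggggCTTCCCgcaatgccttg
Rpl22l1: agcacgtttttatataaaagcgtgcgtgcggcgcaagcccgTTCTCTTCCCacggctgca
Rpl14: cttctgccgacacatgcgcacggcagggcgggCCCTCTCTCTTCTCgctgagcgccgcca
Rpl38: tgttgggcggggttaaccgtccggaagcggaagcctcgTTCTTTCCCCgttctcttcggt
Rplp0: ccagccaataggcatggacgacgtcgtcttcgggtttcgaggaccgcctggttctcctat
Rps16: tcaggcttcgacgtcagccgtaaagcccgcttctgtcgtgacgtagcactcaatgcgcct
Rps2: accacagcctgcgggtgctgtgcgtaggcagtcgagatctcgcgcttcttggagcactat
Rps3: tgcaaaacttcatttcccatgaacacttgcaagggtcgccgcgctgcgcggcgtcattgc

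A promoter was found for 62 of the 83 genes, 74 promoters in all. Such a pyrimidine run was present in 34 of them (45.9%), against 26.1% of all 32851 promoters in the table. CCGGAAG, the core letters bound by ETS-family factors such as GABP, was found on either strand in the 300 bases of 26 promoters (35.1%), against 8.86% of all promoters. GGGCGG, the core letters of an Sp1 site, was found on either strand in 44 promoters (59.5%), against 35.7% of all promoters, and neither motif contains the other. The 32 tested genes with a pyrimidine run at an annotated start had a median ratio of 0.470 and a range of -0.06 to 1.52, and the 29 without one had a median of 0.286 and a range of -0.53 to 2.13. The ranges overlap widely, and Rpl41, at the top of the set, had no run in this window while Rpl38, with a ratio of 0.01, had a run of 10 bases. An annotated start can lie some bases off the true one, and runs farther from the annotated start than the limit given above were not counted. The windows shown for Rps2 and Rplp0 hold such uncounted runs downstream of the start. A missing match therefore says only that no run lay close enough to the annotated start. How the medians depend on this limit was not tested.

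The genes were next taken by place and role in the ribosome. The P stalk, on which the translation factors that hydrolyse GTP land, was not shifted evenly. Rplp1 had 1.92, 0.80, -0.27 and 1.44, a mean of 0.97, and Rplp2 had 1.02, 0.84, 1.05 and 0.13, a mean of 0.76. Rplp0, the base of the stalk, had 0.53, -0.08, -0.13 and -0.19, a mean of 0.03, with array 1 as its only value above 0. None of these passed the test.

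All 9 genes of proteins around the exit tunnel had means above 0, as had 93.9% of the whole set. Their median was 0.519, but 0.400 with the software's processed signals and 0.408 with the mean over the probes of a gene. They ranged from 0.14 for Rpl39, whose protein lines the tunnel, to 0.91 for Rpl23a, a docking site for the signal recognition particle. Among the 5 genes of the message entry and decoding region the means ran from -0.53 (Rps3) and -0.29 (Rps2) to 0.83 (Rps9) and 1.52 (Rps23), so that region held both ends of the small subunit. Rpl5 and Rpl11, which carry 5S rRNA into the ribosome and bind Mdm2 when assembly fails, had means of 0.03 and 0.49.

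Mutations in ribosomal protein genes cause Diamond-Blackfan anaemia, a failure of red cell formation with skeletal malformations in some patients. The 18 such genes had a median of 0.366, near that of the whole set. All had means above 0, as had 93.9% of the whole set, with 0.83 for Rpl27 as the highest. The 7 genes with known skeletal phenotypes had a median of 0.218, which was 0.083 without array 3, 0.343 without array 4 and 0.086 with the software's processed signals. Rpl38, whose loss in mice changes the axial skeleton and the translation of Hox messages, had 0.17, -0.29, 0.28 and -0.13 and showed no steady direction. Rpl13, mutated in a human bone dysplasia, had 0.36, 0.45, 0.22 and 0.12 by its brightest probe, above 0 on each array. Another probe, at a brightness of 15.3, had 0.17, 0.45, 0.06 and 0.06. Its remaining probes were not above 0 throughout, with 0.24, 0.52, -0.11 and -0.13 at 14.4 and 0.46, 0.45, -0.06 and 0.06 at 14.0. Rpl24, the gene of the Belly spot and tail mouse, had a mean of 0.22, Rps6, the target of the S6 kinases, had 0.06, Rps19 had 0.36 and Rpl10 had 0.56. With the 3 others on the X chromosome (Rpl36a at 0.23, Rpl39 at 0.14, Rps4x at 0.02), Rpl10 belonged to a group of 4 with a median of 0.182 (0.056 with the processed signals).

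The paralogues, copies that replace or accompany a standard protein in some tissues, were dimmer and less even than the rest. Of those tested, Rps4y2 and Rpl22l1 were above 1. Rps27l, a p53 target, had 0.59, -0.51, 0.13 and 0.92, and Rpl7l1 had -0.59, -0.60, 1.02 and 0.16, each with values on both sides of 0. Rpl39l, found mainly in testis, had -0.03, -1.80, 1.20 and 0.38, one of the 3 largest SDs of the set (1.27) at one of its lowest brightness values, 7.86 (mean log2 intensity of the channels). Rpl10l, the testis copy of the X-linked Rpl10, had 0.19, 0.03, 0.18 and 0.18 at a brightness of 8.80. Without the paralogues the median of the other 76 genes was 0.390.

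The differences between single genes were partly shared between arrays. Over the 82 genes Pearson's r was 0.704 between arrays 1 and 4, 0.575 between 1 and 2 and 0.326 between 2 and 4, whereas array 3 had 0.016, 0.091 and -0.025 with arrays 1, 2 and 4. These correlations are across genes, which share the arrays and their dyes and are not independent replicates. Over all features r with array 3 was 0.304, 0.305 and 0.363. In 8 genes, picked after their values were seen, the mean of arrays 1 and 4 exceeded array 3 by more than 1 (9.76% of the set and 13.0% of all features), among them Rpl27, Rpl41, Rps23, Rplp1, Rps12, Rpl18 and Rpl23a. Without these 8 genes r between arrays 1 and 4 was 0.482, array 3 had r values of 0.287, 0.123 and 0.348 with arrays 1, 2 and 4, and the median of the other 74 genes was 0.372. The 8 genes were picked for arrays 1 and 4 exceeding array 3, so leaving them out moves these r values by itself and tests nothing. In 4 genes the mean of arrays 1 and 4 lay below array 3 by more than 1 (4.88%, against 15.5% of all features), and these were kept. The 8 probes had 43.3% to 55% G and C with a median of 52.5%, and the whole set had a median of 45%. Across the 82 genes Spearman's rho between that difference and the G and C content was 0.327, given as a description, and its part in the pattern was not tested.

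**Figure D3:**
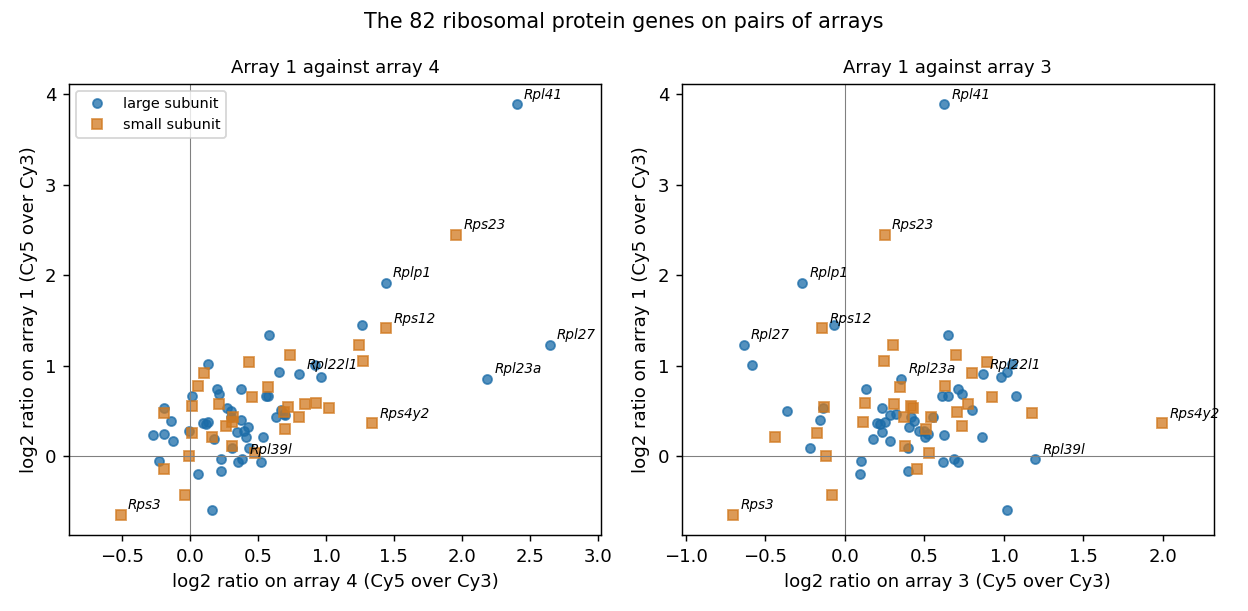
Log2 ratio of each of the 82 ribosomal protein genes on array 1 against array 4 (left) and against array 3 (right), with large subunit genes as blue circles and small subunit genes as orange squares. On the left the genes rise together (r = 0.704), and on the right Rpl41, Rps23 and Rplp1 are high on array 1 but not on array 3 (r = 0.016).

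Some genes of this pattern had a second probe. Rps12, a protein of the beak of the small subunit, had 1.42, 0.60, -0.14 and 1.44 by its brightest probe and 1.31, 0.57, -0.04 and 1.34 by the other. Rpl23a had 0.86, 0.25, 0.35 and 2.19 by the brightest probe and 0.66, -0.08, 0.00 and 1.89 by the other. Rpl27, mutated in some patients with Diamond-Blackfan anaemia, had probes that differed. Its brightest probe had 1.23, 0.08, -0.63 and 2.65, the largest SD of the set (1.43), while a dimmer probe had 0.59, 0.52, 0.65 and 0.80.

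Probes of 1 gene gave a measure of the error below the level of the gene. Of the genes, 58 had several probes. In the 50 of these with more than 1 probe of brightness 12 or above (128 probes), the SD between probes of a gene was 0.149 for the mean ratio and the SD between the gene means was 0.213. Over all 58 genes (160 probes, dim ones included) the order was the other way round, with an SD of 0.304 between probes and 0.264 between gene means. A probe of Rpl23 printed at 10 spots gave an SD between spots of 0.055 to 0.106 on the 4 arrays. On the single arrays the SD between gene means was 0.314 to 0.415 for the 50 genes and 0.371 to 0.467 for the 58. That Rpl23 probe is dim (brightness 9.53) and had -0.29, 0.55, -0.23 and 0.81 on arrays 1 to 4. The brightest Rpl23 probe had 0.44, 0.18, 0.42 and 0.30, so the SD between spots does not measure the difference between probes.

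In 3 genes, Rps15a, Rpl22 and Rpl17, the probes differed by more than 1. The first 30 bases of the probes of Rps15a and Rpl22 are shown because they lie in different places of the gene and gave opposite or unequal ratios. They are written as in the scanner files, with coordinates of the whole 60-base probe on mm9. For Rps15a, on the minus strand, probe a is at chr7:125253453-125253512, probe b at chr7:125252644-125252703 and probe c at chr7:125248322-125248381. For Rpl22, on the plus strand, probe a is at chr4:151706515-151706574 and probe b at chr4:151708012-151708071.
Rps15a probe a: atttgatgttcaactcaaaggcctagagaa
Rps15a probe b: attgtgctgacaacctaggctggcatcatg
Rps15a probe c: gtgagtcagcagaaagtatagatagcaaag
Rpl22 probe a: ggaggaagacgaggattaggacacattggt
Rpl22 probe b: gctgtaaacaacattaaccctgggttgatt

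Probe a of Rps15a had 0.66, 0.44, 0.93 and 0.45 at a brightness of 15.9, and probe b had 0.59, 0.34, 0.66 and 0.15 at 15.3. Probe c, farthest downstream, had -3.46, -1.28, -2.92 and -0.39 at a brightness of 9.18, so all 4 of its arrays lay on the other side of 0. Probe a of Rpl22, whose protein is an RNA-binding part of the large subunit, had 0.28, 0.55, 0.50 and 0.39 at 13.5, and probe b, downstream of it, had 1.35, 2.66, 3.21 and 1.61 at 9.23. The gene values used here are those of the brightest probe, and whether the dim probes report another transcript was not tested. In Rpl17, 6 of 7 probes had means between 0.38 and 0.52 and 1 dim probe had -0.59.

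Many ribosomal protein genes have near-identical processed copies in the genome, so probes can bind more than 1 transcript. Of the 185 probes, 68 share a run of at least 25 bases with a probe of another name on the array, in 41 genes. Such a probe represents 29 genes, among them Rpl21, Rps26 and Rpl22l1. The values of those genes are uncertain to that extent. A pair of Rpl7a probes at the same place, chr2:26768759-26768818 on mm9 (plus strand), differs at 6 bases. Bases 23 to 52 of each are given with the bases that differ in capitals, counted from 1 at the 5′ end of the stretch shown: T2C, G4A, T15C, G16A, G19A and A30C.
Rpl7a probe a: tTgGgttaaatgtaTGctGaattttctgtA
Rpl7a probe b: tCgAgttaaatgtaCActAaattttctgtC

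Probe a gave -0.40, -0.11, 0.94 and -0.02 and probe b gave -0.40, -0.01, 0.80 and 0.18, so the values of this pair followed each other on each array. The brighter probe that represents Rpl7a (13.7) differed from them. It had 0.10, 0.42, -0.22 and 0.43, lowest on array 3, where the pair was highest. Another Rpl7a probe (12.8) had -0.26, -0.13, 0.39 and 0.17.

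Gene lists around the ribosome had lower medians. Among ribosomal proteins outside the name pattern, the median was 0.288 over 4 genes, among them Rpsa (0.52), Fau (0.37) and Rack1 (0.18). Elongation factors and other messages of the TOP class had a median of 0.228 over 15 genes, and 0.124 without array 3. Tpt1, a TOP message that encodes a growth-related protein, had ratios from 0.87 to 1.21 on the 4 arrays, a mean of 1.03 (limma adjusted p = 0.057), and Eef1a1, which brings tRNAs to the ribosome, had 0.59, 0.64, 0.53 and 0.17. Mitochondrial ribosomal proteins, which build the separate ribosome of that organelle, had a median of 0.218 over 78 genes but medians of -0.028, -0.081, 0.659 and 0.176 on arrays 1 to 4, so the direction differed between arrays, and the median was 0.017 without array 3 and 0.347 without array 2. By limma 0 genes of these lists were called. At an unadjusted p under 0.05 the mitochondrial list had 6 genes towards Cy5 (7.69%, against 10.1% of all features) and 5 towards Cy3 (6.41%, against 8.88%). The elongation and TOP list had 3 of 15 towards Cy5 (20%) and 0 towards Cy3.

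Initiation factors had a median of -0.108 over 31 genes and ribosome biogenesis factors -0.186 over 67 genes, but with median centring these medians were 0.399 and 0.144 while that of all features was 0.162. Leaving out 1 array gave -0.046 (without array 1) to -0.239 (without array 3) for the initiation factors. For the biogenesis factors it gave -0.045 (without array 1) to -0.276 (without array 3). Of the 67 biogenesis factors, 1 was called, where 1.66% of all features were called in either direction. At an unadjusted p under 0.05, 3 (4.48%) were higher in Cy5 and 7 (10.4%) in Cy3, against 10.1% and 8.88% of all features. The called gene was Rrp12, which exports the precursor subunits from the nucleus. It was lower in Cy5 with -1.09, -1.04, -1.11 and -0.97, a mean of -1.05 (SE 0.16, limma adjusted p = 0.0493). The call was lost when any 1 array was left out. Without arrays 1 to 4 in turn, 0, 0, 248 and 35 of all 37374 features were called. The bright biogenesis genes Ubtf, the activator of RNA polymerase I, and Npm1, a nucleolar chaperone, had means of 0.89 and 0.44. Growth signalling genes had a median of -0.167 over 27 genes (0.219 with median centring, -0.284 without array 3, -0.117 without array 4). The p53 targets of ribosomal stress had -0.431 over 9 genes (-0.168 with median centring, -0.533 without array 3, -0.275 without array 4). By limma 0 genes of either list were called. At an unadjusted p under 0.05, 4 growth signalling genes (14.8%) and 2 p53 targets (22.2%) were lower in Cy5, against 8.88% of all features. Among other large complexes the 20S proteasome had a median of -0.046 over 19 genes (0.345 with median centring, -0.098 without array 4) and the respiratory chain 0.144 over 81 genes (-0.0051 without array 3, 0.315 without array 2). On single arrays the respiratory chain ranged from -0.278 to 0.498, against 0.360 to 0.450 for the ribosomal protein genes.

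**Figure D4:**
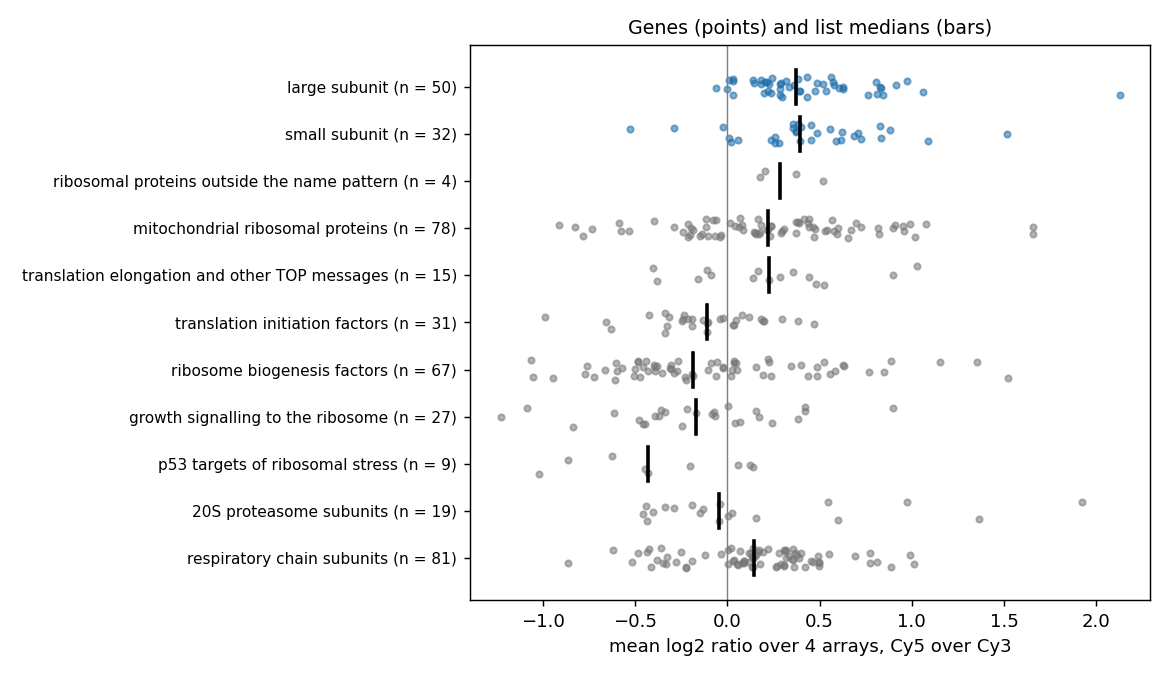
Mean log2 ratio over 4 arrays of each gene (points, jittered up and down) and the median of each list (black bars) for the ribosomal protein genes in blue and related or comparison lists in grey. The subunit medians of 0.372 and 0.395 are the highest of the lists, and the p53 target median of -0.431 is the lowest.

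Markers of other cells moved between the channels too. Of 10 macrophage markers 2 were called higher in Cy5, where 1.66% of all features were called in either direction. That list had a median of 1.35 and per-array medians from 0.498 to 2.21, with 6 means above 0 and 4 below it, down to -0.74. Of 10 fibroblast and periosteum markers 5 were called higher in Cy5, with a list median of 2.51, 8 means above 0 and 2 below it, down to -1.62. At an unadjusted p under 0.05, 1 macrophage marker (10%) and 2 fibroblast and periosteum markers (20%) were higher in Cy3, against 8.88% of all features. The 9 dental epithelium markers had a median of -0.953 with 2 called higher in Cy3 and 1 mean above 0. Proliferation genes had a median of 0.228 over 10 genes with per-array medians from -0.262 to 0.891. The part of other cells or of growth in the ribosomal protein ratios was not tested.

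The size of the shift depended on how the dyes were balanced. With each array centred on its median in place of loess, which removes the trend of the ratio with brightness, the median of the set was 1.20, 59 of 82 genes were called higher in Cy5 (6.70% of all features were called in either direction), and the median of all features moved to 0.162. The features of like brightness then had a median of 0.819, so the set stood above them by 0.382, against 0.353 with loess. Over 13 ways of processing other than leaving out an array, the median of the set minus that of the like-bright features lay between 0.308 and 0.382. These are not 13 separate checks. The intensity trend in eBayes and the unpaired fit leave the mean ratios unchanged and repeat the 0.353. The deposited value table and the processed signals both gave 0.357.

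**Figure D5:**
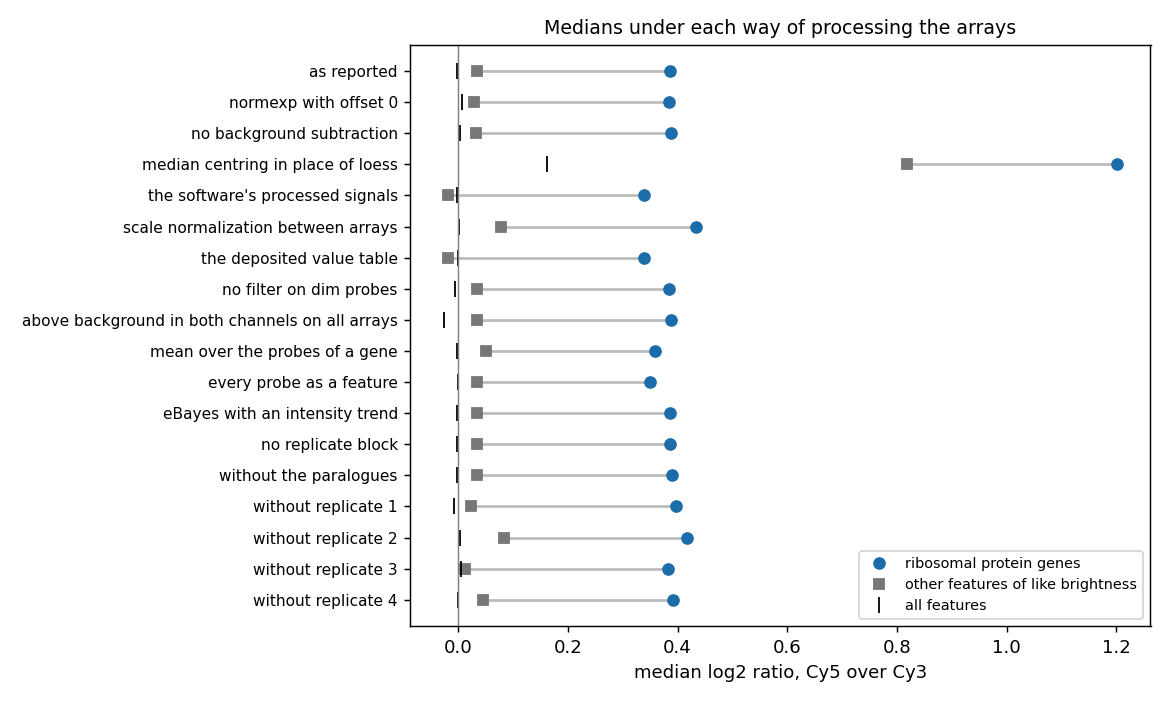
Median log2 ratio of the ribosomal protein genes (blue circles), of other features of like brightness (grey squares) and of all features (black ticks) under each way of processing the arrays. Median centring moves the circle to 1.20 and the square to 0.819 together, and the gap between circle and square stays between 0.308 and 0.382 in the settings that keep all 4 arrays.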

How the data were processed

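The deposited scanner files hold, per the file headers (Agilent Feature Extraction 10.7.3.1), mean spot and median background intensity values of both channels, the authors' processed intensity values and their log10 ratio, and flags as other numbers of 0 or 1. A deposited value table holds log10 ratios that matched the software's within 1e-04 for 99.3% to 99.4% of probes. Its columns had a median of 0, and no further centring was found. Per the labels, 250 ng of cDNA was labelled for each channel. Later steps by the authors are not given in the sources used here.

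Intensities were background-corrected with normexp (offset 50) and normalized with loess within arrays in limma 3.58.1 (R 4.3.3), with the 3671 control spots at weight 0. Outlier-flagged spot values (949) were set to missing, and spots of a probe were averaged. No spot was saturated. A probe was kept where 1 of its channels lay well above background on 3 or more of the 4 arrays, and a gene is represented by its brightest probe. Each of 37374 features was tested two-sided against 0 with lmFit and eBayes, with Benjamini-Hochberg adjustment over all features. Each array pairs both RNAs, so the ratio is the paired difference. Symbols came from RefSeq (GRCm38.p6), 27235 probes by accession. The fit was tested on simulated data.

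The members and gene lists were chosen with earlier results of these data known. Named are, in each subunit, the 5 highest and 5 lowest means and the 3 brightest genes, the 3 smallest and 3 largest SDs, the role lists, genes whose probes differ by more than 1, and from each related list called genes and the 2 brightest. A few genes that this rule names are not reported here.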

Additional observations from a re-analysis of the deposited data

Results flagged for a closer look

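Of 72 named genes and set medians, 5 genes had 1 array that stood apart from the other three by Dixon's test, and chance gives about 1 in 20. Rpl22l1 had 1.66 on array 2, above 0.80 to 0.91 on the others. Rplp0 had 0.530 on array 1, with the others from -0.19 to -0.08. Rpl17 had 0.0130 on array 4, below 0.65 to 0.75 on the others. Rpl10l had 0.0347 on array 2, with the others at 0.18 and 0.19, and Mrpl51, a protein of the mitochondrial ribosome, had -0.0450 on array 2, with the others from 0.60 to 0.70. Over all 82 tested ribosomal protein genes 7 had such an array.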

How the results depend on the processing

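Over all alternatives the median of the ribosomal protein genes stayed above 0. It was 0.338 with the software's processed signals and with the deposited value table, 0.434 with scale normalization between arrays and 1.20 with median centring in place of loess, and other settings moved it by less than the spread between arrays. With median centring 59 of 82 genes were called, 78 lay above 0 on every array and 18 genes of the related lists were called, where 6.70% of all features were called. The related lists held 4, 78, 15, 31, 67, 27 and 9 tested genes. With median centring Eif3h, an initiation factor, turned to 0.809. With an intensity trend in eBayes 4 ribosomal protein genes and 4 related genes were called, where 2.06% of all features were called. With no replicate block, taking the channels as unpaired groups, 4 and 6 were called, the ribosomal ones being Rpl14, Rpl22l1, Rpl34 and Rps26 (4.88% of the set, against 3.34% of all features). As reported, the related lists had 1 call, Rrp12, where 1.66% of all features were called. They had 0 with a normexp offset of 0, no background subtraction, processed signals, scale normalization, the value table or every probe as a feature. Leaving out each array in turn gave medians of 0.383 to 0.418, large minus small differences of -0.110 to 0.056, 75 to 76 genes above 0, 50 to 56 above 0 on every remaining array, and 0 calls in the set and in the related lists. Few features of any kind were called in these runs, with 0, 0, 248 and 35 of 37374 without arrays 1 to 4. Scale normalization also left 0 of all features called. Of 82 genes 68 kept 1 sign under each alternative run. Precision is limited by 4 arrays without a dye swap.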
